A study of Homo sapiens with 12 samples.

Results

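The transcripts of 9 genes that code for collagen IV chains (COL4A1, COL4A2, COL4A3, COL4A4, COL4A5 and COL4A6) or for collagen VI chains (COL6A1, COL6A2 and COL6A3) were followed through 12 RNA-Seq libraries. The genes were taken by symbol from a table of 58735 gene IDs, and all 9 were found in it. SW872, a line derived from a human liposarcoma, had been made to express TAZ-CAMTA1 (TC) or YAP-TFE3 (YT) stably, the fusion oncoproteins of epithelioid hemangioendothelioma. Each line carried a non-targeting hairpin (shNT, named shNon-targeting in the labels) or a stable hairpin against YEATS2 or ZZZ3, both members of ATAC, a complex that acetylates histones. Every group therefore expressed a fusion protein and a hairpin, and no library of unmodified SW872 cells was used here. There were 6 groups of 2 libraries: TC shNT, TC shYEATS2, TC shZZZ3, YT shNT, YT shYEATS2 and YT shZZZ3. The study calls the libraries of each condition biological duplicates. It states separate transduction for its sequencing triplicates, without naming these pairs. The p-values thus rest on the spread between the 2 libraries of a group, estimated over all 6 groups, whatever its source.

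Collagen IV chains combine as trimers into the sheet-like network of basement membranes. The COL4A1 and COL4A2 chains make the trimer found in nearly all basement membranes, and the other chains make trimers restricted to certain tissues, such as the kidney glomerulus. Collagen VI chains assemble into beaded microfilaments around mesenchymal cells, at the border between basement membrane and interstitial matrix, and the COL6A3 chain is the largest of them. Collagen IV genes lie in head-to-head pairs that share the interval between their start sites.

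The pairs set the frame for the values that follow. COL4A1 and COL4A2 start 127 bases apart on opposite strands of chromosome 13, COL4A3 and COL4A4 start 419 bases apart on chromosome 2, and COL4A5 and COL4A6 start 1416 bases apart on chromosome X (GENCODE canonical transcripts, GRCh38). COL6A1 and COL6A2 lie in tandem on chromosome 21 with starts 116342 bases apart, and COL6A3 lies alone on chromosome 2. RefSeq promoter windows (GRCh38.p14, 300 bases of which 250 precede the start) matched 8 of the 9 members. COL6A1 had no entry. The stretches shown here lie before the starts of COL4A1, COL4A2, COL4A4 and COL6A3, the chains that were called in a knock-down, and of COL6A2, a collagen VI chain that was not, as a contrast to COL6A3. They are trimmed to bases that no GENCODE exon covers. They are written 5′ to 3′ on the gene's strand, and capitals mark matches to a CCAAT box (CCAAT) or a GC box (GGGCGG) on either strand. The first stretch is chr13:110307158-110307257 on the plus strand, between the COL4A1 and COL4A2 starts. The second is chr2:227164206-227164395, minus strand, before COL4A4. The third is chr21:46097862-46098111, plus strand, before COL6A2. The last is chr2:237414329-237414414, minus strand, before COL6A3. The COL6A3 start is at 237414164, so this stretch does not adjoin it, whereas those of COL4A4 and COL6A2 adjoin their starts.
COL4A1-COL4A2: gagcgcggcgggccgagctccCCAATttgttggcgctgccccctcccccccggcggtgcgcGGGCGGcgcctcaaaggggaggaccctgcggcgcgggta
COL4A4: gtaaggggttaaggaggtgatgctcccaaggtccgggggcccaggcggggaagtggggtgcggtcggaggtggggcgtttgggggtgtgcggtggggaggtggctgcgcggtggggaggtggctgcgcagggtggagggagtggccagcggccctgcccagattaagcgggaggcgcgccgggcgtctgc
COL6A2: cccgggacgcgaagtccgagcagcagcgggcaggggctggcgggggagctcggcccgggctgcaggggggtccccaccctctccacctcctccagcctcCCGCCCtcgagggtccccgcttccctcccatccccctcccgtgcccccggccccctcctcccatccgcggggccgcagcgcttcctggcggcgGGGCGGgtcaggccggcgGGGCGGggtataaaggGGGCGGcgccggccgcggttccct
COL6A3: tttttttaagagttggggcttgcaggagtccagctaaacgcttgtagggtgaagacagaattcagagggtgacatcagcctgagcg

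The shared COL4A1-COL4A2 stretch held 1 match to the GC box and 1 to the CCAAT box and was 78.0% G and C. The COL6A2 stretch held 4 GC box matches and was 79.6% G and C. The COL6A3 stretch, which lies farther from its start, held neither motif and was 48.8% G and C. The COL4A4 stretch held no match to either, at 72.6% G and C. Over the 35116 promoter windows in the table, 45% held a GC box match and 34.6% a CCAAT match. These shares are for windows of 300 bases. The stretches are shorter, at 100 (COL4A1-COL4A2), 190 (COL4A4), 250 (COL6A2) and 86 bases (COL6A3), so their matches cannot be set against the shares directly. The full windows of COL4A4 and COL6A3 also held neither motif, and that of COL4A1 held 2 GC box matches. Strings of the TEAD element (CATTCC), the AP-1 element (TGANTCA) and the E-box bound by TFE3 and its relatives (CACGTG) were found in 14.0%, 7.71% and 7.26% of all windows, and on neither strand in any window of the 8 members. No searched string contains another. A match is a string of letters and not a measured binding site, and the absence of a match says only that the letters are not in these windows.

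The libraries held 17451893 to 29294805 counts, of which the 9 members took 0.143 to 0.206%. Counts were compared with edgeR's quasi-likelihood test, in which all 6 groups share 1 estimate of the spread, and a gene was called at a Benjamini-Hochberg adjusted p below 0.05 over the 18415 genes tested. Levels are CPM, the counts of a gene relative to the TMM-scaled total of its library, and fold changes are on the log2 scale with an SE. That SE was not fitted but derived from the test, as the absolute log2 fold change divided by the square root of its F statistic. COL4A3, with a mean of 3.67 counts, fell under the minimum mean of 5 counts, so 8 of 9 members were tested. The hairpin target YEATS2 fell in both lines (log2 -1.55, adjusted p = 0.0138 in TC and log2 -1.68, adjusted p = 1.04e-04 in YT), and ZZZ3 fell in YT (log2 -1.51, adjusted p = 0.0453). In TC, ZZZ3 had a log2 difference of -0.94 that was not called (adjusted p = 0.45), with TC shNT libraries at 25.6 and 60.4 CPM and TC shZZZ3 libraries at 21.9 and 22.7 CPM. ZZZ3 also lay lower in YT shYEATS2 (31.4 and 30.7 CPM) than in YT shNT (71.2 and 49.1 CPM). That difference had an unadjusted edgeR p below 0.05 and was not called. The libraries also differed in their trend with G and C content: genes at 62% against those at 45% differed by 0.51 on the log2 scale in TC shNT replicate 1 and by -0.32 in TC shNT replicate 2, with the other 10 libraries between -0.39 and 0.26. This bears on COL4A2, COL6A1 and COL6A2, whose exons hold 61.8%, 63.5% and 66.4% G and C.

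By length, collagen VI dominated. Per kb of exon, COL6A1 had a median of 135 CPM and COL6A2 of 144 CPM over the 12 libraries. COL6A3, with the longest exons (10.5 kb), had a median of 9.06 CPM per kb, below COL4A2 (28.3), COL4A5 (19.7) and COL4A1 (17.7). COL4A6 followed with 2.66 CPM per kb, and COL4A4 and COL4A3 were close to nothing, with medians of 0.0664 and 0.0147 CPM per kb.

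**Figure D1:**
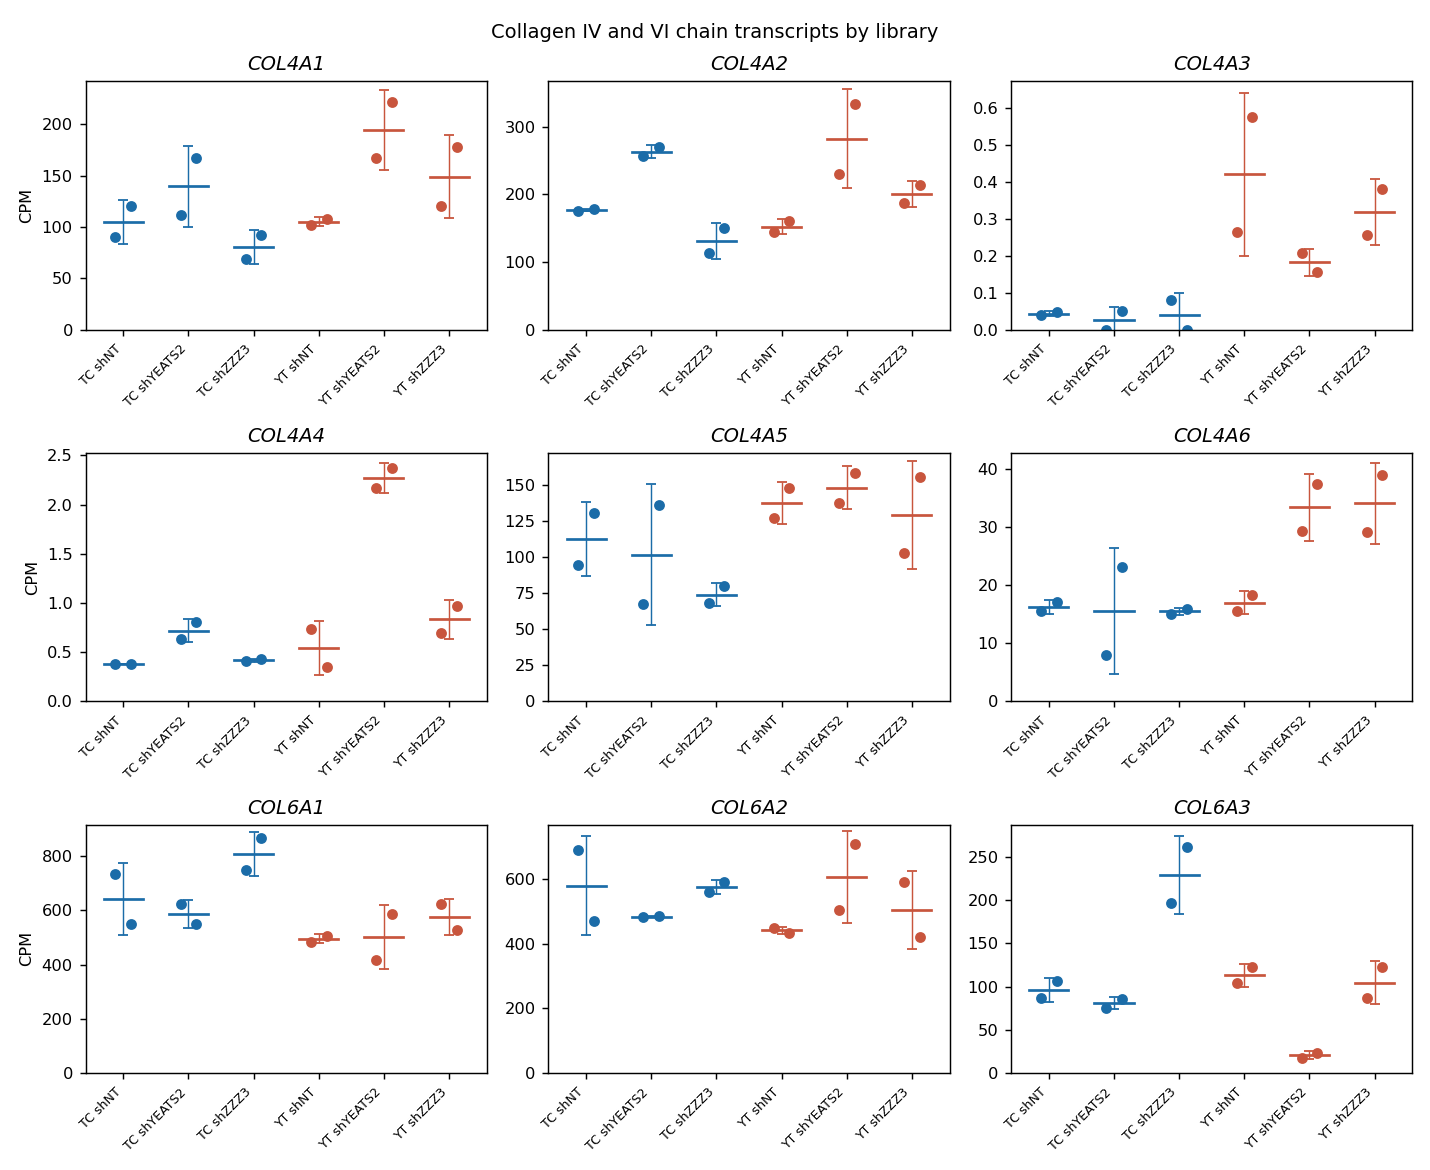
CPM (linear axes from 0, scaled per gene) of each collagen IV and VI chain in the 6 groups; points are the 2 libraries, lines the mean and bars 1 SD, with TC in blue and YT in red. COL6A3 ranges from 17.8 CPM in YT shYEATS2 to 261 CPM in TC shZZZ3, while the values of COL4A3 stem from 10 counts or fewer per library.

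Counted over the members, YEATS2 knock-down in YT called 4 of 8, with 3 higher and 1 lower. Of all genes tested in that comparison, 20.7% were called, 9.61% as higher and 11.1% as lower. The median log2 change of the members was 0.67 beside -0.01 over all genes. ZZZ3 knock-down in TC called 1 of 8, as higher, beside 1.53% of all genes (0.934% higher and 0.592% lower). Knock-down of YEATS2 in TC called 0 of 8 by edgeR and by DESeq2, with 1 of 8 at an unadjusted p below 0.05 (COL4A2), beside 0.0434% of all genes. ZZZ3 knock-down in YT called 0 of 8 by edgeR and by DESeq2, with 1 of 8 at an unadjusted p below 0.05 (COL4A6), beside 10.0% of all genes (4.40% higher and 5.62% lower). The differences between lines called COL6A3 alone of the 8 for each hairpin, beside 9.37% of all genes for YEATS2 and 4.32% for ZZZ3. The 2 YT comparisons share the YT shNT libraries, and the 2 TC comparisons share the TC shNT libraries. The 2 libraries of a group differed most in TC shNT, YT shZZZ3 and TC shYEATS2. Their chi-square per degree of freedom, against counting error, was 95.7, 86.2 and 48.3, beside 9.82 to 16.5 in the other groups. A gene not called is thus not shown to be unchanged.

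**Figure D2:**
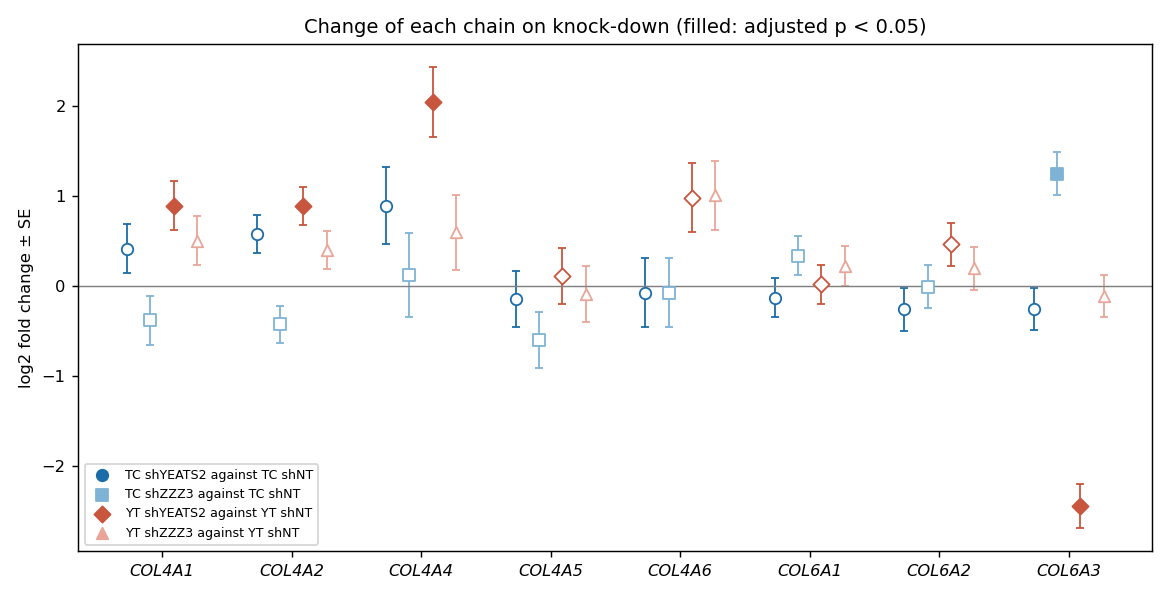
Log2 fold change of the 8 tested chains in the 4 knock-down comparisons, with bars for the SE derived from the F statistic. Filled symbols passed an edgeR adjusted p of 0.05. COL6A3 is at -2.45 for YT shYEATS2 and at 1.25 for TC shZZZ3, while COL4A1, COL4A2 and COL4A4 are filled in YT shYEATS2 only.

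Of the 8 tested chains, the widest range was that of COL6A3, the collagen VI chain that completes the trimer with the COL6A1 and COL6A2 chains. The libraries stood at 86.8 and 106 CPM (TC shNT), 75.9 and 85.6 (TC shYEATS2), and 197 and 261 (TC shZZZ3). In the YT line they stood at 104 and 123 CPM (YT shNT), 17.8 and 23.9 (YT shYEATS2), and 86.9 and 122 (YT shZZZ3). Both YT shYEATS2 libraries thus lay below all others and both TC shZZZ3 libraries above all others, a 14.7-fold range from the lowest to the highest library. In the order of group means, TC shZZZ3, YT shNT, YT shZZZ3, TC shNT, TC shYEATS2 and YT shYEATS2, the neighbours YT shNT and YT shZZZ3 overlapped, as did YT shZZZ3 and TC shNT.

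COL6A3 fell 5.45-fold when YEATS2 was knocked down in YT (log2 -2.45, SE 0.246, edgeR adjusted p = 8.48e-05). In TC the same hairpin gave log2 -0.26 (SE 0.232, adjusted p = 1), although the 2 pairs of libraries did not overlap. The difference between the lines was itself called, at log2 -2.19 (SE 0.333, adjusted p = 0.00199). These calls in YT and between the lines held when any 1 of the 12 libraries was left out, at adjusted p of at most 0.00482 and 0.0248.

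Knock-down of ZZZ3 moved COL6A3 the other way, and in the other line. In TC shZZZ3 it rose 2.37-fold (log2 1.25, SE 0.234, adjusted p = 0.0234), whereas in YT shZZZ3 the difference was log2 -0.12 (SE 0.231, adjusted p = 0.805). The difference between the lines was called (log2 -1.36, SE 0.328, adjusted p = 0.0399). These ZZZ3 calls were less firm: without TC shNT replicate 1, the library with the steepest G and C trend, the rise in TC was log2 1.09 (adjusted p = 0.127) and the difference between lines log2 -1.18 (adjusted p = 0.0952), and 8 and 10 of the 12 such omissions ended the respective call. Omission of either library of TC shNT, TC shZZZ3, YT shNT or YT shYEATS2 ended the call in TC, with log2 values from 1.03 to 1.44 and an adjusted p of up to 0.263. For the difference between lines, only the omission of TC shNT replicate 2 or YT shZZZ3 replicate 2 kept the call, and the log2 values ran from -1.61 to -1.07 with an adjusted p of up to 0.228. With library totals in place of TMM, the rise was log2 1.21 (adjusted p = 0.0633) and the difference between lines log2 -1.31 (adjusted p = 0.0897), and with only the compared libraries in the fit they were log2 1.22 (adjusted p = 0.0922) and log2 -1.32 (adjusted p = 0.0913). The correction for G and C content ended the call of the difference alone (log2 -1.26, adjusted p = 0.051). In TC shZZZ3 the hairpin target itself was not called as lower, as given above.

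The other collagen VI chains followed, COL6A1 and COL6A2, were called in no comparison. COL6A1 stood at 734 and 549 CPM (TC shNT), 622 and 548 (TC shYEATS2), and 749 and 866 (TC shZZZ3). In YT it stood at 483 and 506 CPM (YT shNT), 417 and 585 (YT shYEATS2), and 623 and 529 (YT shZZZ3). The libraries of TC shZZZ3 were above all others, and no test of COL6A1 was called (adjusted p from 0.325 to 1).
For COL6A2, the libraries stood at 689 and 471 CPM (TC shNT), 483 and 484 (TC shYEATS2), and 559 and 590 (TC shZZZ3). The YT libraries stood at 449 and 434 CPM (YT shNT), 506 and 708 (YT shYEATS2), and 590 and 420 (YT shZZZ3). Most groups overlapped. YT shYEATS2 lay above YT shNT, a difference that was not called (log2 0.46, SE 0.24, adjusted p = 0.197, and log2 0.25 after G and C correction).

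Within a library, the scaling cancels, so the make-up of collagen VI could be read from ratios per kb. The trend of a library with G and C content does not cancel and was not corrected in the ratios. COL6A3 exons hold 53.1% G and C, against 63.5% and 66.4% for COL6A1 and COL6A2. COL6A3 made up 3.87 and 4.51% of the summed level per kb of COL6A1, COL6A2 and COL6A3 in YT shNT, against 0.683 and 0.653% in YT shYEATS2. It made up 2.15 and 3.64% (TC shNT) against 5.21 and 6.17% (TC shZZZ3). The summed level itself was 255 and 258 CPM per kb in the YT shNT libraries and 248 and 347 in those of YT shYEATS2, so that the total overlapped while the share of COL6A3 did not. The COL6A1 to COL6A2 ratio was also lowest in YT shYEATS2, with a log2 ratio of -0.56 in both libraries, against -0.21 to 0.27 in the other 10. The difference in this ratio was not tested. In bulk RNA, fewer cells that make a transcript and less of it per cell cannot be told apart.

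**Figure D3:**
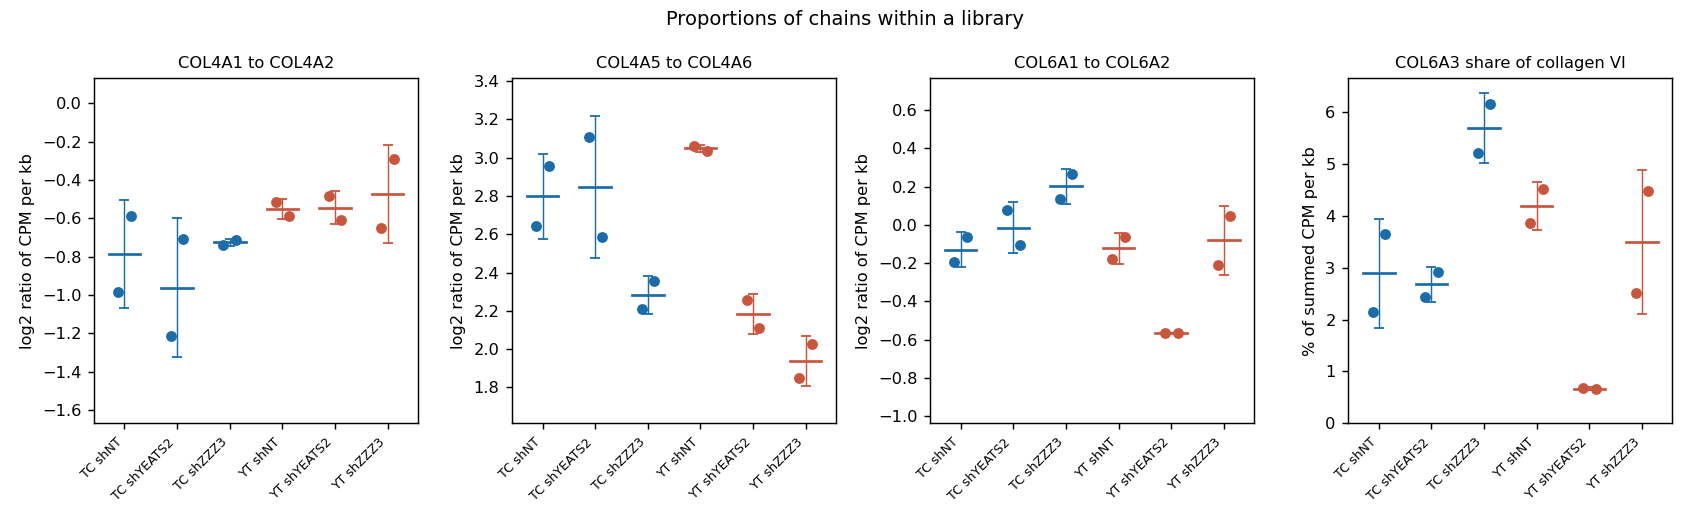
Log2 ratios of CPM per kb for 3 gene pairs, and the share of COL6A3 in the summed level per kb of COL6A1, COL6A2 and COL6A3 (%), in the 6 groups; points are libraries, lines means and bars 1 SD (n = 2), and the 3 ratio axes span the same width. COL6A3 makes up 0.653 to 0.683% in YT shYEATS2 and 2.15% or more in every other library. COL4A5 to COL4A6 is lower in both YT knock-downs than in YT shNT, and the ratios and shares were not tested.

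COL4A1 and COL4A2, the chains of the common basement membrane trimer, rose together in YT shYEATS2. COL4A1 stood at 102 and 108 CPM (YT shNT), 167 and 222 (YT shYEATS2), and 121 and 177 (YT shZZZ3). COL4A2 stood at 144 and 160 CPM (YT shNT), 230 and 333 (YT shYEATS2), and 187 and 214 (YT shZZZ3). For both genes, the libraries of each YT knock-down lay above those of YT shNT. The rise was 1.85-fold for each in YT shYEATS2, at log2 0.89 (SE 0.272, adjusted p = 0.0396) for COL4A1 and log2 0.89 (SE 0.21, adjusted p = 0.0127) for COL4A2. In YT shZZZ3 the differences of log2 0.50 (SE 0.27, adjusted p = 0.284) and log2 0.40 (SE 0.209, adjusted p = 0.274) were not called.

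Both YT shNT libraries had a negative G and C trend (-0.21 and -0.22), against -0.07 and 0.18 in the YT shYEATS2 libraries. With a correction for that trend and no other change, neither was called: the difference was log2 0.79 (adjusted p = 0.092) for COL4A1 and log2 0.69 (adjusted p = 0.0623) for COL4A2. With library totals in place of TMM, COL4A1 was not called either (log2 0.84, adjusted p = 0.0821). Without YT shYEATS2 replicate 2, the library with the higher value of both genes, the differences were log2 0.67 (adjusted p = 0.256) and 0.60 (adjusted p = 0.142). Omission of either YT shNT library also ended both calls, at log2 0.85 and 0.94 for COL4A1 and 0.81 and 0.98 for COL4A2, as did that of YT shYEATS2 replicate 1 (log2 1.09, adjusted p = 0.0738) or either TC shZZZ3 library (adjusted p = 0.0522 and 0.0521) for COL4A1 alone.

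In the TC line, COL4A1 stood at 89.9 and 120 CPM (TC shNT), 112 and 168 (TC shYEATS2), and 68.5 and 92.5 (TC shZZZ3). COL4A2 stood at 175 and 178 CPM (TC shNT), 256 and 270 (TC shYEATS2), and 113 and 149 (TC shZZZ3). COL4A2 did not overlap between TC shNT and either knock-down, and the values lay above it with shYEATS2 (log2 0.57, SE 0.209) and below it with shZZZ3 (log2 -0.43, SE 0.209). Neither difference was called (adjusted p = 0.746 and 0.503). For ZZZ3, the difference between the lines was 0.89 for COL4A1 (SE 0.383, unadjusted p = 0.0402, edgeR adjusted p = 0.26) and 0.83 for COL4A2 (SE 0.296, unadjusted p = 0.0169, edgeR adjusted p = 0.164) on the log2 scale, neither of which was called.

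The COL4A1 to COL4A2 log2 ratio per kb stayed between -1.22 and -0.29 in all 12 libraries, with group means from -0.96 in TC shYEATS2 to -0.47 in YT shZZZ3. The YT shNT libraries had -0.52 and -0.59 and the YT shYEATS2 libraries -0.48 and -0.61, so the ratio overlapped between the groups in which both genes changed. The ratio was not corrected for the G and C trend, and the exons hold 55.2% (COL4A1) and 61.8% (COL4A2) G and C. Their annotated gene bodies overlap by 1346 bases on opposite strands. The library kit keeps strand, but the sources used here do not say whether the counting did, so part of the reads of this overlap could be counted for either gene.

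COL4A3 and COL4A4 code for chains of the trimer of kidney glomerulus, lung and other specialised basement membranes, and both were near the limit of detection. COL4A4 had 14 and 6 counts (YT shNT) against 52 and 46 (YT shYEATS2), which is 0.739 and 0.345 CPM against 2.16 and 2.37. The YT shYEATS2 libraries were above all other libraries, which ranged from 6 to 23 counts. COL4A4 rose 4.11-fold there (log2 2.04, SE 0.391, adjusted p = 0.0039), a value that rests on few control counts. Without YT shNT replicate 1 the difference was log2 2.70 (adjusted p = 0.0109), and without YT shNT replicate 2 it was log2 1.62 (adjusted p = 0.0527). In TC shYEATS2, with 18 and 16 counts against 10 and 8 (TC shNT), the difference was log2 0.89 (SE 0.431, adjusted p = 1).

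Its partner COL4A3 had too few counts for a test. They were 1 and 1 (TC shNT), 0 and 1 (TC shYEATS2), and 2 and 0 (TC shZZZ3). In YT they were 5 and 10 (YT shNT), 5 and 3 (YT shYEATS2), and 7 and 9 (YT shZZZ3). Every YT library had more counts than any TC library. Summed over the 2 libraries and scaled, the YT shNT to TC shNT ratio was 9.73, with a 95% exact conditional interval of 2.26 to 87.7 that covers counting error only. The YT shYEATS2 to YT shNT ratio was 0.446 (0.164 to 1.12), an interval that includes no change.

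COL4A5 and COL4A6 code for chains that also occur in the basement membranes of skin and smooth muscle. COL4A5 stood at 94.4 and 130 CPM (TC shNT), 67.1 and 136 (TC shYEATS2), and 68.2 and 79.5 (TC shZZZ3). In YT it stood at 127 and 147 CPM (YT shNT), 137 and 158 (YT shYEATS2), and 103 and 155 (YT shZZZ3). All neighbours in its order of groups overlapped and no test was called, and its largest knock-down difference was log2 -0.61 in TC shZZZ3 (SE 0.312, adjusted p = 0.545).

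COL4A6 stood at 15.6 and 18.4 CPM (YT shNT), 29.4 and 37.5 (YT shYEATS2), and 29.2 and 39.0 (YT shZZZ3). Both YT knock-downs lay above all the other libraries. The differences from YT shNT were log2 0.98 (SE 0.384, adjusted p = 0.0941) and log2 1.01 (SE 0.383, adjusted p = 0.131), of which DESeq2 called the first (adjusted p = 0.0459) and not the second (adjusted p = 0.0635). TC libraries stood at 15.5 and 17.2 CPM (TC shNT), 7.97 and 23.2 (TC shYEATS2), and 15.1 and 15.9 (TC shZZZ3), where TC shYEATS2 replicates were the farthest apart of any group.
The COL4A5 to COL4A6 log2 ratio per kb was 3.06 and 3.04 (YT shNT), 2.26 and 2.11 (YT shYEATS2), and 1.85 and 2.03 (YT shZZZ3). In this pair the ratio thus did not overlap between YT shNT and either knock-down, unlike the COL4A1 to COL4A2 ratio. The differences in these ratios were not tested, and the share of other gene pairs without overlap was not counted. In TC it was 2.64 and 2.96 (TC shNT) and 2.21 and 2.35 (TC shZZZ3), and TC shYEATS2 (3.11 and 2.58) overlapped TC shNT.

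Between the control lines, YT shNT against TC shNT, 0 of 8 members were called by edgeR and by DESeq2 and 0 had an unadjusted p below 0.05, beside 9.23% of all genes (5.58% higher and 3.65% lower). The log2 differences ran from -0.39 for COL6A2 to 0.51 for COL4A4. COL6A1, COL6A2 and COL4A2 did not overlap between the lines and were lower in YT, which makes 3 of 8, beside 25.3% of all genes tested that lay lower without overlap (51.3% in either direction). These 3 are also the members richest in G and C, and the correction for G and C content took their differences from log2 -0.37, -0.39 and -0.21 to log2 -0.14, -0.09 and -0.06. For its other RNA-Seq the study collected cells with CAMTA1 constructs at lower density than the rest, and where that holds here, density and fusion protein cannot be told apart.

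COL4A3 and COL4A4 had a mean below 50 counts and were left out of a comparison of profiles. The profile of each other chain over the 6 groups was set against 13251 other genes whose mean count reached 50, by the root-mean-square (RMS) difference of the group means of log2 CPM, each gene centred on its own mean. The smaller the value, the closer the profiles. Nearest to COL6A3, whose own profile had an RMS of 1.03, were TCL1A (0.258), NTF3 (0.309) and TMEM132D-AS1 (0.323), the last an antisense RNA whose reads can be told from those of its partner only if strand was counted. The nearest to COL4A1 were KDM6B (0.0922), H2BC5 (0.124) and PDLIM3 (0.135), and to COL4A2 SNPH (0.142), MMP15 (0.145) and NOS1AP (0.154). For COL4A6 they were SORBS2 (0.0988), ANXA1 (0.104) and SVIL (0.147), and for COL4A5 TRPC1 (0.0851), ARMCX2 (0.0867) and KLHL24 (0.0911). The flat profiles of COL6A1 and COL6A2, with an RMS of 0.24 and 0.157, were closest to PCMT1 (0.0428), RCCD1 (0.0492) and MAMDC2 (0.0589) for the first and to LRRC51 (0.0334), NFIX (0.0401) and AACS (0.041) for the second.

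Genes whose products bind or border collagen IV and VI were counted from a list of 15 basement membrane and interface partners, of which 12 were tested. In YT shYEATS2, 3 rose and 1 fell, in YT shZZZ3 2 rose and 1 fell, and in TC shZZZ3 2 fell. Of all genes tested, 20.7%, 10.0% and 1.53% were called in these comparisons. The median log2 change of the list was 0.57, 0.24 and -0.33 in these comparisons, beside -0.01, 0.01 and -0.01 over all genes. In TC shYEATS2 edgeR called 0 and DESeq2 1, with 1 gene at an unadjusted p below 0.05, beside 0.0434% of all genes called by edgeR. COL15A1, the chain of a collagen that links basement membrane to fibrils, stood at 1191 and 1488 CPM (YT shNT), 432 and 484 (YT shYEATS2), and 452 and 463 (YT shZZZ3). It fell in both (log2 -1.55, adjusted p = 0.0016 and log2 -1.55, adjusted p = 0.00337), and it also fell in TC shZZZ3, from 499 and 585 to 227 and 259 CPM (log2 -1.16, adjusted p = 0.0464). NID2, a nidogen that joins collagen IV to laminin, rose in YT shZZZ3 from 31.9 and 28.2 to 80.8 and 95.3 CPM (log2 1.55, adjusted p = 0.0291). It was also called as higher in YT shYEATS2 (log2 1.41, edgeR adjusted p = 0.0257). COL8A1, a short-chain network collagen, rose in YT shYEATS2 from 38.6 and 42.6 to 128 and 150 CPM (log2 1.78, adjusted p = 0.00975). Its difference in YT shZZZ3 was log2 1.35 and was not called (edgeR adjusted p = 0.0536). MATN2, a matrilin, fell in TC shZZZ3 from 158 and 170 to 84.1 and 84.4 CPM (log2 -0.96, adjusted p = 0.0127). Its difference in TC shYEATS2 was log2 -0.97 and was not called (edgeR adjusted p = 0.0662). Between the control lines 1 of the 12 was higher in YT, COL15A1 (log2 1.31), and 3 were lower, among them NID2 (log2 -1.52). Over all genes tested, 5.58% were higher and 3.65% lower between these lines.

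All 21 genes for the folding, modification and export of collagen chains were tested. In YT shYEATS2 3 rose and 5 fell, and in YT shZZZ3 4 rose and 3 fell. Of all genes tested, edgeR called 20.7% and 10.0% there, 1.53% in TC shZZZ3 and 0.0434% in TC shYEATS2. In TC shYEATS2 edgeR and DESeq2 each called 0 of 21, with 1 gene at an unadjusted p below 0.05. In TC shZZZ3 edgeR called 0 and DESeq2 1, with 5 genes at an unadjusted p below 0.05. MIA2, a cargo receptor for collagen export from the endoplasmic reticulum, stood at 55.6 and 56.4 CPM (YT shNT) and fell to 22.3 and 19.5 (YT shYEATS2) and 20.9 and 25.8 (YT shZZZ3) (log2 -1.42, adjusted p = 0.00447 and log2 -1.26, adjusted p = 0.0149). P4HA1, a catalytic subunit of the prolyl hydroxylase that stabilises collagen helices, fell in YT shYEATS2 from 112 and 106 to 48.0 and 51.4 CPM (log2 -1.13, adjusted p = 0.0147). It was also called as lower in YT shZZZ3 (log2 -0.95, edgeR adjusted p = 0.0497). COLGALT2, a collagen galactosyltransferase, rose in YT shZZZ3 from 2.43 and 3.39 to 7.02 and 7.87 CPM (log2 1.36, adjusted p = 0.0145). Its difference in YT shYEATS2 was log2 0.71 and was not called (edgeR adjusted p = 0.113). Between the control lines 3 of 21 were higher in YT, among them MIA2 (log2 1.39), and 2 lower, among them P3H2 (log2 -1.59), a prolyl 3-hydroxylase that acts on collagen IV. The shares over all genes tested were 5.58% higher and 3.65% lower. The median log2 change of the list was 0.30 in YT shYEATS2 and -0.11 in YT shZZZ3, beside -0.01 and 0.01 over all genes.

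Of 14 genes for collagen receptors, 3 rose and 2 fell in YT shYEATS2, 1 rose and 2 fell in YT shZZZ3, and 1 rose in TC shZZZ3. In these comparisons 20.7%, 10.0% and 1.53% of all genes tested were called. The list had a median log2 change of 0.36, -0.24 and -0.22 there, beside -0.01, 0.01 and -0.01 over all genes. In TC shYEATS2 edgeR and DESeq2 each called 0, with 1 gene at an unadjusted p below 0.05, beside 0.0434% of all genes called by edgeR. DDR2, a receptor tyrosine kinase for fibrillar collagens, stood at 600 and 514 CPM (YT shNT) and fell to 189 and 178 (YT shYEATS2) and 184 and 233 (YT shZZZ3) (log2 -1.60, adjusted p = 0.00179 and log2 -1.42, adjusted p = 0.0068). ITGA10, a collagen-binding integrin subunit, stood at 1.85 and 2.13 CPM (YT shNT) and rose to 8.91 and 7.23 (YT shYEATS2) and 3.75 and 4.78 (YT shZZZ3) (log2 2.02, adjusted p = 0.00119 and log2 1.10, adjusted p = 0.0486). CD44, a receptor of hyaluronan and matrix proteins, rose in TC shZZZ3 from 289 and 283 to 577 and 595 CPM (log2 1.03, adjusted p = 0.0164). It was also called as higher in YT shYEATS2 (log2 1.43, edgeR adjusted p = 3.46e-04). Between the control lines 2 of 14 were higher in YT, among them ITGA2 (log2 1.69), and 1 was lower, ITGA10 (log2 -1.73). Among all genes tested, 5.58% were higher and 3.65% lower.

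**Figure D4:**
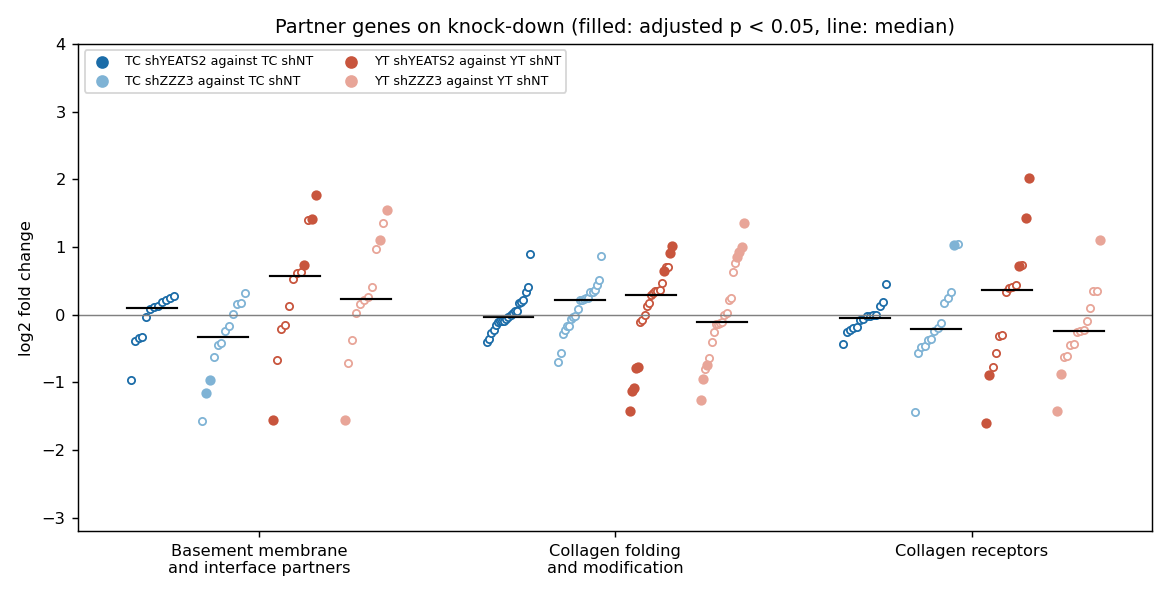
Log2 fold change of each tested gene in the lists of basement membrane partners (12), folding and modification genes (21) and collagen receptors (14) in the 4 knock-down comparisons; filled points passed an edgeR adjusted p of 0.05 and black lines are medians. Filled points lie on both sides of 0 in YT shYEATS2 and YT shZZZ3, and no point is filled in TC shYEATS2.

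Markers of cell types were read beside these values. The 5 mesenchymal markers summed to 1733 and 1834 CPM in the YT shNT libraries, 3476 to 3562 in YT shYEATS2 and 2505 to 3535 in YT shZZZ3. In YT shYEATS2, where COL6A3 fell, VIM (log2 1.47), CD44 (log2 1.43) and THY1 (log2 1.42) were called as higher and NT5E as lower (log2 -1.20). In YT shZZZ3, VIM (log2 1.37) and THY1 (log2 1.49) were called as higher. In TC shZZZ3, where COL6A3 rose, CD44 was called as higher, as given above. The 4 endothelial markers summed to 47.5 to 49.2 CPM in YT shNT, 40.6 to 41.8 in YT shYEATS2 and 150.4 to 150.5 in YT shZZZ3, and they differed most within TC shYEATS2 (57.4 and 266 CPM). PECAM1 (log2 3.13) and CDH5 (log2 1.94) were called as higher in YT shZZZ3, and TEK as lower in TC shZZZ3 (log2 -1.48), from 19.1 and 26.6 to 7.19 and 9.19 CPM. The 4 leukocyte markers summed to 4.33 to 4.59 CPM in YT shYEATS2 and to at most 2.84 CPM in any other library. Of these, CD14 was called as higher in YT shYEATS2 (log2 2.42), from 0.739 and 0.748 to 3.87 and 4.13 CPM. The sum there was mostly CD14, as the libraries held 2 to 3 counts of PTPRC, 6 to 7 of CD3E and 1 of CD68. PTPRC and CD68 had too few counts for a test. The 4 epithelial markers summed to 285 to 911 CPM, and KRT8 was called as lower in YT shYEATS2 (log2 -1.82). EPCAM, CDH1 and KRT18 lay higher there than in YT shNT and were not called, and the median log2 change of the 4 was 0.73. EPCAM had 11 to 17 counts per library in YT shNT and 35 to 37 in YT shYEATS2, and CDH1 had 1 to 6 and 8 to 15. Both were thus near the limit of detection, and nearly all of the summed CPM came from KRT8 and KRT18. Of the 5 adipocyte markers LEP was at 0 in all 12 libraries, ADIPOQ had at most 1 count and FABP4 at most 7 counts in a library. PLIN1 had 7 to 37 counts and PPARG 816 to 3093 counts per library, and neither was called in any comparison. The part of these markers' shifts in the collagen values was not tested.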

How the data were processed

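The authors deposited raw, whole-number counts for each gene, made from stranded poly(A) libraries sequenced as paired ends. According to the study's methods, reads were aligned to hg38 with HISAT2 in bcbio-nextgen, and gene-level counts were also made from Salmon. Which of these gave the deposited whole numbers is not given in the sources used here, nor is the handling of strand. The submitters' processing notes name bcl2fastq and hg38. The per-library and combined tables differed in 0 cells. Libraries were grouped by the labels alone.

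Gene IDs were joined to GENCODE release 44, which held 99.1% of them; ZZZ3 is listed under another symbol in the table. Genes averaging 5 counts or more were fitted in edgeR 4.0.16 (R 4.3.3, TMM, quasi-likelihood test), after a test on simulated data. Group was the factor, with 6 residual degrees of freedom, and the prior count was edgeR's default. A prior count of 2 entered only the log2 CPM behind the G and C trend and the correlations of same-numbered libraries. The 7 comparisons were the 4 knock-downs, the 2 differences of a hairpin's effect between lines, and 1 of the control lines. CPM per kb used the exon length of the canonical transcript. Alternatives were DESeq2 1.42.0, its size factors, library totals, no filter, only the libraries compared, a replicate block, a correction for G and C content, and leaving out each library.

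The members and lists were chosen with earlier results of these data known. Named are all members and the hairpin targets, for each list and comparison up to 2 called genes with the largest change whose groups did not overlap, and for each member the 3 genes of most similar profile. Counting intervals are exact at 95% and cover counting error only. Promoter sequences are from RefSeq.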

Additional observations from a re-analysis of the deposited data

Results flagged for a closer look

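The effect of a hairpin on COL6A3 differed between the TC and YT lines for both hairpins, by the test of the difference itself. For YEATS2 the effect in YT minus that in TC was -2.19 on the log2 scale (-2.45 against -0.26), and for ZZZ3 it was -1.36 (-0.12 against 1.25), with edgeR adjusted p of 0.00199 and 0.0399. The ZZZ3 difference was less firm: it was called under 5 of 8 alternatives, and the YEATS2 difference under 8 of 8. With 1 library left out, the ZZZ3 difference ran from log2 -1.61 to -1.07. The transcript of ZZZ3 itself was not called as lower in TC shZZZ3. Groups of 2 libraries were too small to look for outlying libraries.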

How the results depend on the processing

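COL6A3 fell in YT shYEATS2, and its effect differed between lines for YEATS2, under all 8 alternatives and all 12 omissions of a library. The count of members called moved elsewhere. For ZZZ3 in TC it was 0 with library totals and with only the libraries compared, in place of 1. For YEATS2 in YT it was 2 with the correction for G and C content, in place of 4, but 3 with library totals, 5 with DESeq2 and without the filter (COL4A6 added), and 6 with only the libraries compared (COL4A6 and COL6A2 added). For ZZZ3 in YT it was 1 without the filter (COL4A6), in place of 0. For the difference in ZZZ3 effect it was 0 with library totals, with only the libraries compared and with the G and C correction, in place of 1. Leaving out 1 library gave counts of 0 to 1 for ZZZ3 in TC, 1 to 5 for YEATS2 in YT, 0 to 1 for ZZZ3 in YT, 1 to 2 for the difference in YEATS2 effect and 0 to 1 for that in ZZZ3 effect. The lowest count for YEATS2 in YT, 1, came without YT shNT replicate 2. The cause was not tested. Over these 20 settings, 1067 of the members' fold changes stayed on their side of the threshold, 36 lost a call, 17 gained one and 0 reversed. COL4A3, tested only where the filter was off or fewer libraries entered, was not called (YT shNT against TC shNT, log2 3.09, adjusted p = 0.0633). The COL4A3 to COL4A4 ratio was not formed because COL4A3 had libraries at 0. From the other pair ratios the scaling cancels, but the trend with G and C content does not.

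The deviations of same-numbered libraries correlated at -0.44 to 0.90 over 15 pairs of groups, above 0.1 in 7 (among them all pairs of TC shNT, TC shYEATS2, TC shZZZ3 and YT shZZZ3) and below -0.1 in 4, all with YT shNT. Since not every pair was above 0.1, the numbers were not taken to pair the libraries. With a replicate block, 5 members were called for YEATS2 in YT, with COL4A6 added. With the replicate block and the G and C correction together, the count was again 5 for YEATS2 in YT, with COL4A1 (log2 0.75, adjusted p = 0.00684) and COL4A2 (log2 0.68, adjusted p = 0.0019) called, unlike with the correction alone. It was 1 for ZZZ3 in YT, 2 for the difference in YEATS2 effect and 3 for that in ZZZ3 effect.

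An exact permutation test of 2 libraries against 2 cannot go below p = 0.333. Low counts limit COL4A3 and COL4A4 most.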
